A study of Mus musculus with 2 samples.

Results

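Bile acid transport and sensing genes of the mouse colon are described here as 8 genes, chosen by name for their roles in moving bile acids across the gut wall and in detecting them, out of 43346 Ensembl genes in the tables, 21474 of them protein-coding. The genes are the uptake carrier Slc10a2, the cytosolic binding protein Fabp6, the exporters Slc51a, Slc51b and Abcc3, the receptors Nr1h4 and Gpbar1, and the hormone gene Fgf15. Polyadenylated RNA was sequenced from colon of C57BL/6J mice aged 8 weeks, in 2 libraries of a single group, numbered as biological replicates 1 and 2. The labels give no treatment, genotype or second condition, so the data give levels in the tissue and how far the libraries differ. The labels describe male and female littermates pooled and list the same donor record for both libraries. They do not say that the libraries came from separate animals, so a p-value between them speaks of these libraries only. The exact binomial test used below sets a difference against counting error alone. A second test, named where used, adds a common spread between the libraries.

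Bile acids are made from cholesterol in the liver, released into the gut with a meal, and mostly recovered in the last part of the small intestine. There the sodium-dependent carrier made from Slc10a2 takes them in, Fabp6 carries them through the cell, and a heterodimer of the Slc51a and Slc51b products releases them toward the blood. Inside the cell they bind the nuclear receptor FXR, the product of Nr1h4, which in the ileum turns on Fgf15, a hormone that slows bile acid synthesis in the liver. The colon receives what escapes this recovery, largely as secondary bile acids made by bacteria, and the membrane receptor TGR5, the product of Gpbar1, responds to these.

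The libraries stood apart in ways that bear on the values below. The tables held 46271167 expected counts over Ensembl genes in replicate 1 and 45499561 in replicate 2. Replicate 1 had 8721 counts of Xist and 0 counts of 4 Y-linked genes, and replicate 2 had 12 and 1382, although both labels describe pooled sexes. By these reads replicate 1 was female in type and replicate 2 male, so neither read as a pool of both sexes. Each difference between the libraries below goes with this difference in sex-linked reads and cannot be told apart from it. The sum of the 6 pancreatic acinar markers was 26.7 TPM in replicate 1 and 28500 in replicate 2, where TPM is a level per transcript length scaled to the same total in each library. The 8 colonocyte markers, led by Lypd8, Guca2a, Car1 and Muc3, were all present in both libraries and summed to 19500 and 21700 TPM. Each value below is therefore given for each library as well as for both.

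Abcc3, the basolateral pump MRP3 that exports bile acids and glucuronide conjugates, had the highest level of the 8 genes (ENSMUSG00000020865.12, mm10 chromosome 11, 94343295 to 94392997, minus strand). It was listed at 188 TPM in replicate 1 and 204 in replicate 2, a mean of 196 ± 11.3 (SD, n = 2), which placed it 706th among protein-coding genes. Slc51a, the larger subunit of the exporter OST, followed with 59.6 and 11.1 TPM, a mean of 35.4 ± 34.3. Nr1h4 had 24.4 and 18.3 TPM, a mean of 21.4 ± 4.36. Slc10a2 had 15.2 and 4.95 TPM, a mean of 10.1 ± 7.23, and Gpbar1 had 6.55 and 5.36, a mean of 5.96 ± 0.841. The remaining genes were low, with Slc51b, the small subunit of OST, at 2.17 and 2.40 TPM, Fabp6 at 1.32 and 0.60, and Fgf15 at 0.05 and 0.

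**Figure D1:**
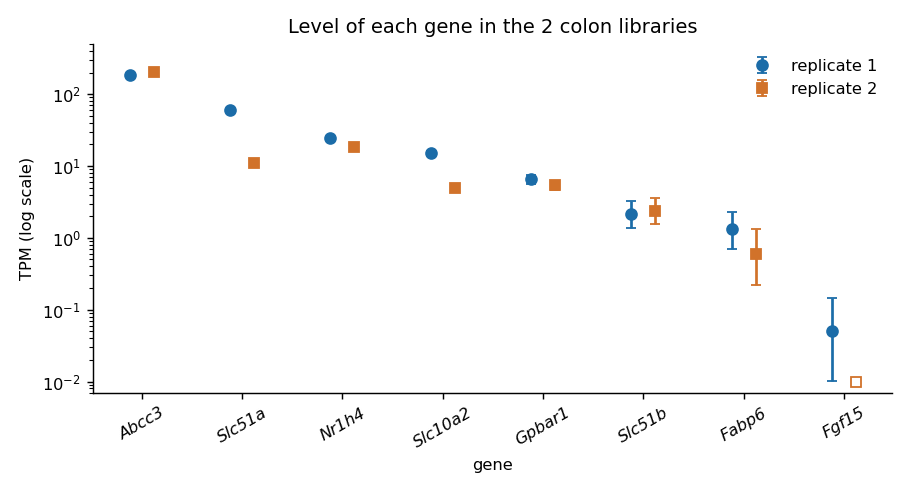
TPM on a log scale of the 8 genes, in order of their mean, in replicate 1 (blue circles) and replicate 2 (orange squares), with bars for the exact Poisson 95% interval of the count behind each value. Abcc3 lies near 196 TPM in both libraries, Slc51a is at 59.6 in replicate 1 and 11.1 in replicate 2, and the open square marks Fgf15 in replicate 2, which was listed at 0 and is drawn at the foot of the axis.

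The order of the levels was the same in both libraries except for 2 exchanges. Slc51a stood above Nr1h4 in replicate 1 and below it in replicate 2, and Slc10a2 stood above Gpbar1 in replicate 1 and below it in replicate 2. The ranges of these neighbours overlapped, so neither pair can be ranked. No other neighbours in the order overlapped between the libraries, although the ranges of Slc51a and Slc10a2, which are not neighbours, did. The order by FPKM, another level per length, was identical. Within a library FPKM differs from TPM only by a constant factor, so this order is no separate check. A level of at least 1 TPM in both libraries was reached by 6 of the 8 genes, all except Fabp6 and Fgf15.

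Slc10a2, which encodes the apical sodium-dependent bile acid carrier ASBT, had 787 counts in replicate 1 and 255 in replicate 2 (ENSMUSG00000023073.1, mm10 chromosome 8, 5083219 to 5105351, minus strand). The exact Poisson 95% intervals of these counts ran from 733 to 844 and from 225 to 288, so replicate 1 was higher beyond counting error. The log2 ratio of scaled counts, replicate 1 over replicate 2, was 1.59 (exact 95% interval 1.39 to 1.80), or 3.01-fold. By a two-sided exact binomial test with Benjamini-Hochberg adjustment over all genes tested, the adjusted p was 1.48e-59. That test covers counting error alone. With a common spread between the libraries, a biological coefficient of variation of 0.271, edgeR's exact test gave an adjusted p of 0.302. The difference in Slc10a2 thus did not pass that test. The common spread was estimated from the same 2 libraries, so it includes the differences tested.

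Fabp6, the ileal bile acid binding protein that carries bile acids through the cytosol, was close to the limit of the counts (ENSMUSG00000020405.4, mm10 chromosome 11, 43596049 to 43601540, minus strand). It had 13 counts in replicate 1 and 6 in replicate 2, with exact Poisson 95% intervals of 6.92 to 22.2 and 2.20 to 13.1. The intervals overlapped, and the log2 ratio of 1.02 had an exact 95% interval of -0.41 to 2.76 (adjusted p = 0.278, exact binomial test). A difference in Fabp6 was not detectable at this depth. Fabp2, the fatty acid binding protein of the small intestine, was listed at 7.96 times the TPM of Fabp6 in replicate 1 and 30.5 times in replicate 2.

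Slc51a showed the widest difference between the libraries of the 7 genes that could be tested (ENSMUSG00000035699.7, mm10 chromosome 16, 32474504 to 32487879, minus strand). It had 3029 counts in replicate 1 (exact Poisson 95% interval 2920 to 3140) and 561 in replicate 2 (516 to 609). The log2 ratio of scaled counts was 2.40 (exact 95% interval 2.27 to 2.53), or 5.27-fold higher in replicate 1. The adjusted p of the exact binomial test was too small to write out, with a log10 of -392, and edgeR's exact test with the common spread gave an adjusted p of 0.00488. This difference was thus larger than both the counting error and the common spread between these libraries.

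Its partner Slc51b did not show this difference (ENSMUSG00000053862.5, mm10 chromosome 9, 65412714 to 65422955, minus strand). Slc51b had 22 counts in replicate 1 and 25 in replicate 2, with exact Poisson 95% intervals of 13.8 to 33.3 and 16.2 to 36.9 that overlapped. The log2 ratio was -0.21, and its exact 95% interval of -1.11 to 0.67 lay wholly below that of Slc51a. The subunits act as a pair, and by TPM Slc51a exceeded Slc51b 27.5-fold in replicate 1 and 4.63-fold in replicate 2. These ratios rest on gene models of 1600 bases for Slc51a and 488 for Slc51b, and on few reads of Slc51b.

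The regions before the starts of the differing carriers and of Slc51b are printed to show what each holds, as 250 bases before to 50 after the RefSeq start (build GRCm38.p6), 5′ to 3′ on the gene's strand. The capitals mark matches to AGGTCA, the half-site of many nuclear receptors, or to GTTAAT, a half-site of the factor HNF1, read on either strand. The windows are chr16:32487830-32488129 for Slc51a, chr9:65422724-65423023 for Slc51b and chr8:5105238-5105537 for Slc10a2, all on the minus strand. The GENCODE models of Slc51b and Slc10a2 start further upstream, at 65422955 and 5105351. Part of the bases before the RefSeq start therefore lies within those 2 gene models.
Slc51a: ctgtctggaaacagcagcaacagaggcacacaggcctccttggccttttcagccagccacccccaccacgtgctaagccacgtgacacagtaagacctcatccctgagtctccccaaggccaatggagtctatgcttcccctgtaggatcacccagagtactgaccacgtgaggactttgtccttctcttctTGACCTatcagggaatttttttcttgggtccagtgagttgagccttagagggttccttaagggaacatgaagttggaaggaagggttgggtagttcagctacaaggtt
Slc51b: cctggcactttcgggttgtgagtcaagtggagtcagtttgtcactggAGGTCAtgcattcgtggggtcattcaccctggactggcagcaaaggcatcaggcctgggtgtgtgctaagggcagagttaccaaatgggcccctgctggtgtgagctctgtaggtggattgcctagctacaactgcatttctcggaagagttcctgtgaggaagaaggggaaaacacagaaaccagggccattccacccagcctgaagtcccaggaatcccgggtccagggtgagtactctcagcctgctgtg
Slc10a2: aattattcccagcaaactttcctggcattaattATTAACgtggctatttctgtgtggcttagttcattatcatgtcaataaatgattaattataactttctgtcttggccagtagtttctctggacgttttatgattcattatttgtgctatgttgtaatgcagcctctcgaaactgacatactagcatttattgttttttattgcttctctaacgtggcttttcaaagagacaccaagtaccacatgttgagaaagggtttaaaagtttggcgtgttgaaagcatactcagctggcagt

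The Slc51a window held TGACCT, the half-site on the other strand, at -58. Positions are counted from the RefSeq start to the first base of the match on the gene's strand. The Slc51b window held AGGTCA at -203, and the Slc10a2 window held ATTAAC, the HNF1 half-site on the other strand, at -217. Of 32851 RefSeq promoter windows of the same length, 16.3% held AGGTCA or its complement and 7.10% held GTTAAT or its complement, so such matches are common. The Nr1h4 window held 1 of each, TGACCT at -214 and GTTAAT at -40, and the Fabp6 and Gpbar1 windows held neither. The inverted repeat AGGTCANTGACCT, the form to which FXR is best known to bind with its partner RXR, was in 3 of the 32851 windows and in 0 of the 6 available for these genes. It can be read the same way on both strands, and each match also counts as a half-site match. Only exact letters were counted, and sites that differ by a few bases were not searched for. The Fabp6 window held a near match to the inverted repeat, aggtgaataacct, named here after the window was seen. A window without a match may therefore still hold such a site. No promoter entry was at hand for Abcc3 and Fgf15.

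Abcc3 had 19466 counts in replicate 1 and 18037 in replicate 2, the deepest coverage of the 8 genes. The log2 ratio was 0.08 (exact 95% interval 0.05 to 0.11), with an adjusted p of 1.04e-06 by the exact binomial test. The ratio is 1.06-fold, far below the 2-fold limit set for a call, and edgeR's exact test gave an adjusted p of 1.0. Relative to Slc51a, the TPM of Abcc3 was 3.15-fold higher in replicate 1 and 18.3-fold higher in replicate 2. Relative to Slc51b it was 86.5-fold and 84.9-fold higher.

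The TPM of Abcc3 pointed the other way from its counts, higher in replicate 2, and a short transcript carried that difference. Abcc3-203, a noncoding transcript of 567 bases and 3 exons at the 3′ end of the gene, was listed at 79.9 TPM in replicate 1 and 104 in replicate 2, or 42.5% and 51.0% of the TPM of the gene. It held 5.35% and 7.64% of the counts of the gene, since a short model gives more TPM per read. The coding transcripts Abcc3-206 and Abcc3-201 together held 94.3% and 91.9% of the counts and 105 and 95.8 TPM, a mean of 100 ± 6.37. Counted by its coding transcripts alone, Abcc3 was higher in replicate 1, in the direction of its counts, and kept the highest level of the 8 genes.

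Abcc3-206 and Abcc3-201 differ by 3 bases at the 5′ end of exon 20, at chr11:94359941-94359943 on the minus strand of mm10, and by another 3 at the end of the last exon, where Abcc3-206 runs further. The junction of exons 19 and 20 is printed for both from the GENCODE vM21 transcripts, with the extra bases in capitals.
Abcc3-206: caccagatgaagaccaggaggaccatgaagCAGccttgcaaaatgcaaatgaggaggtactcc
Abcc3-201: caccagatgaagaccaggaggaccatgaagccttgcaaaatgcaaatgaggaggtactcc

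The form with CAG held 65.9% of the coding TPM in replicate 1 and 63.6% in replicate 2, a mean of 64.7 ± 1.64. The libraries were close in this share, which is the authors' estimate of how reads divide between transcripts that are otherwise nearly alike. Such a choice between neighbouring acceptor sites adds or removes an amino acid without shifting the reading frame.

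**Figure D2:**
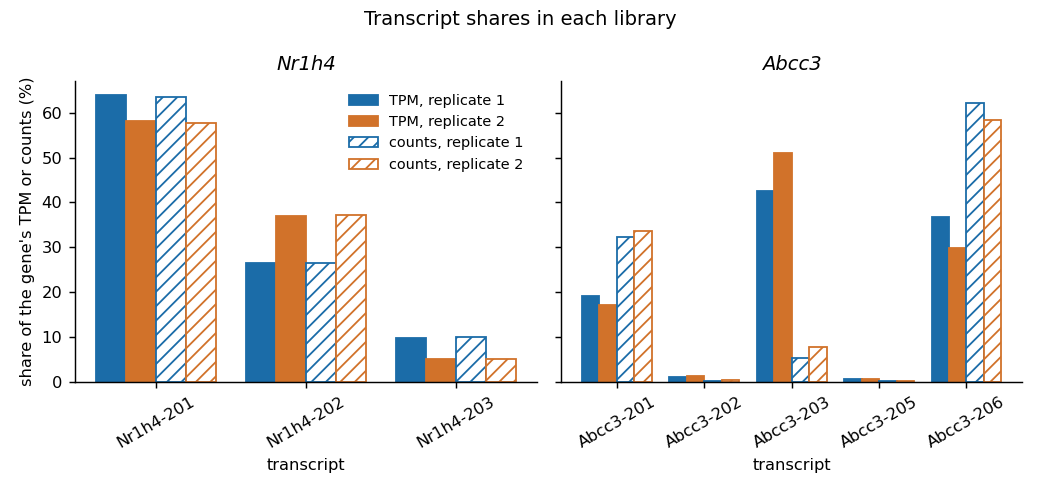
Shares in percent of each gene's TPM (filled bars) and expected counts (hatched bars) held by the transcripts of Nr1h4 and Abcc3 in replicate 1 (blue) and replicate 2 (orange); Abcc3-204, at 0 and 0.04% of TPM, is not drawn. Abcc3-203 holds 42.5% and 51.0% of the TPM of Abcc3 but 5.35% and 7.64% of its counts, and Nr1h4-201 leads Nr1h4 by both measures.

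Nr1h4, which encodes the bile acid receptor FXR, had 1577 counts in replicate 1 and 1169 in replicate 2 (ENSMUSG00000047638.11, mm10 chromosome 10, 89454234 to 89533585, minus strand). The exact Poisson 95% intervals, 1500 to 1660 and 1100 to 1240, did not overlap. The log2 ratio was 0.40 (exact 95% interval 0.29 to 0.51) with an adjusted p of 4.95e-12 by the exact binomial test, and it stayed below the 2-fold limit. EdgeR's exact test gave an adjusted p of 1.0, so the difference did not pass the test with the common spread between the libraries.

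FXR is made in several forms from the same gene, through separate first exons and through a short insert beside the DNA-binding domain that changes which response elements the receptor favours. The insert is 12 bases at the end of exon 3, at chr10:89483372-89483383 on the minus strand of mm10. Both forms are printed across the junction of exons 3 and 4, from the GENCODE vM21 transcripts, with the insert in capitals.
Nr1h4-202: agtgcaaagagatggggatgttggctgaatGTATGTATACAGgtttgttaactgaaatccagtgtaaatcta
Nr1h4-201: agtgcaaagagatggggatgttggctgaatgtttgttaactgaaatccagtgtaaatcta

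Nr1h4-201, without the insert, was listed at 15.6 TPM in replicate 1 and 10.6 in replicate 2, or 63.9% and 58.1% of the TPM of the gene. Nr1h4-202, with the insert and a first exon in the same place, was listed at 6.45 and 6.74 TPM, or 26.4% and 36.9%. Nr1h4-203 has the insert and a distal first exon at 89533403 to 89533585, and was listed at 2.38 and 0.91 TPM, or 9.74% and 5.0%. The forms with the insert together held 36.1% and 41.9% of the TPM, a mean of 39.0 ± 4.07. Transcripts without the insert, and those with the proximal first exon, therefore held most of the TPM in both libraries. Nr1h4-201 and Nr1h4-203 were both lower in replicate 2 while Nr1h4-202 was not, and this was not tested.

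Gpbar1, which encodes the membrane bile acid receptor TGR5, had 207 counts in replicate 1 and 169 in replicate 2 (ENSMUSG00000064272.3, mm10 chromosome 1, 74278550 to 74279624, plus strand). The exact Poisson 95% intervals of 180 to 237 and 144 to 196 overlapped. The log2 ratio was 0.26 (exact 95% interval -0.04 to 0.56; adjusted p = 0.155, exact binomial test), so no difference was detectable at this depth. TGR5 is known on enteroendocrine cells and macrophages. The 7 enteroendocrine markers summed to 2340 and 2130 TPM and the 8 macrophage markers to 482 and 451, and in bulk tissue fewer cells of a type and less RNA per cell cannot be told apart.

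Fgf15, the hormone that FXR turns on in the ileum, was at the limit of detection (ENSMUSG00000031073.5, mm10 chromosome 7, 144896531 to 144900953, plus strand). It had 3 counts in replicate 1 and 0 in replicate 2, where the exact Poisson 95% interval runs up to 3.69 counts. Both libraries were at or under the floor of 3 counts used for ratios, so no ratio is given. Nr1h4 was thus read from over 1000 counts in each library in which Fgf15 was read from at most 3.

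Of the 8 genes, 7 had enough counts to be tested and 2, Slc51a and Slc10a2, passed an adjusted p of 0.05 and a 2-fold difference, against 6.11% of all 17713 genes tested. Both were higher in replicate 1, as were 2.48% of all genes tested, while 3.63% were higher in replicate 2. The median log2 ratio was 0.40 over the 7 genes and -0.01 over all genes tested. With the common spread in edgeR's exact test, 1 of the 7 passed, Slc51a, against 1.35% of all genes tested. Few genes make up these counts, and the genes were named with earlier results of these libraries known.

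**Figure D3:**
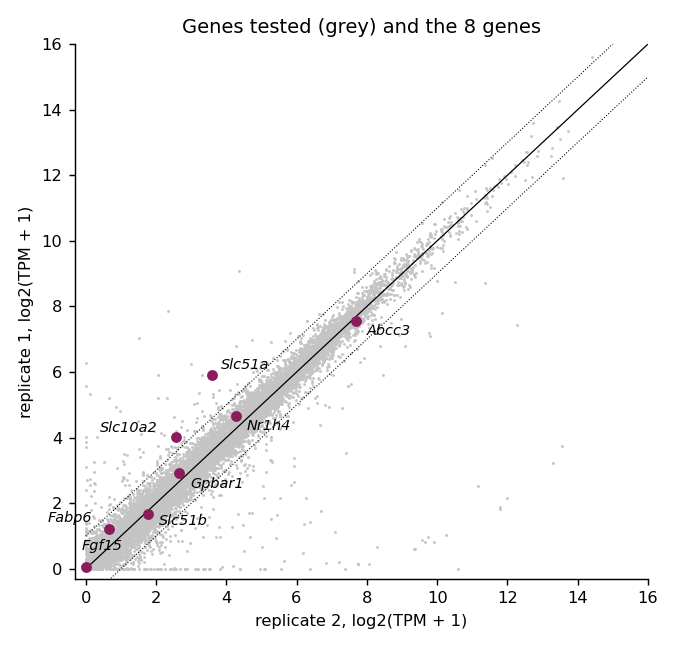
Log2(TPM + 1) in replicate 1 against replicate 2 for all 17713 genes tested (grey) and the 8 genes (purple), with a solid line for equal levels and dotted lines at a log2 difference of 1. Slc51a (59.6 and 11.1 TPM) and Slc10a2 (15.2 and 4.95) lie above the upper dotted line and the other genes between the lines.

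Other markers also moved with the libraries in which Slc51a and Slc10a2 differed. The acinar list stood higher in replicate 2 for 6 of 6 genes. All 6 had counts in replicate 1 as well, but only 3 reached 1 TPM in both libraries. With the counts of those 6 genes left out of the library totals, the log2 ratios were 2.38 for Slc51a and 1.57 for Slc10a2. That step changes only the scaling, which shifts all genes alike, so it does not test what goes with the acinar reads. The 13 small intestine markers, whose tissue is the main site of Slc10a2 and Fabp6, summed to 142 and 138 TPM. Most of this sum was Slc5a1 (52.2 and 45.5), Alpi (36.4 and 27.8) and Slc15a1 (31.2 and 34.6). Only 6 of the 13 reached 1 TPM in both libraries. Of these 13, 6 had a log2 ratio above 0 and 7 below 0, with a list median of -0.17, and the sucrase-isomaltase gene Sis and the cubilin gene Cubn were called, both higher in replicate 1. Among the lipid handling genes of this list, Apoa4 (-1.46), Mttp (-1.0), Apoa1 (-0.93), Apoc3 (-0.87) and Fabp2 (-0.83) had log2 ratios below 0. The retinol binding protein gene Rbp2 went the other way, at 0.56, and none of these genes was called. The genes below 0 are given to show the direction opposite to Sis and Cubn. All of those below 0 but Fabp2 were chosen after their values were seen. The part of these markers in the results was not tested.

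Reads of overlapping genes limit some of these values. By the vM21 annotation, Slc51a shares 567 bases with Pcyt1a and Slc51b shares 2140 with Rasl12, in each case on the opposite strand, genes named here for that overlap after their values were seen. Pcyt1a had 16.9 and 13.7 TPM, with a log2 ratio of 0.14 against 2.40 for Slc51a. Rasl12 had 5.50 and 7.50 TPM, above Slc51b in both libraries. Fgf15 overlaps the antisense genes Gm26793 and Gm39119, named for the same reason. The libraries were stranded, but whether the counting used the strand is not given in the sources used here.

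The other export pumps listed, not all of them carriers of bile acids or their conjugates, were lower than Abcc3 by TPM. The 9 export pumps listed came to 145 TPM in total in replicate 1 and to 146 in replicate 2, and 5 of the 9 reached 1 TPM in both. Abcb1a, a broad xenobiotic pump of the apical membrane, led with 79.1 and 90.4 TPM, followed by the basolateral pump Abcc1 with 41.1 and 30.9, the apical pump Abcg2 with 15.2 and 12.5, and Abcc6 with 5.64 and 7.88. Abcc3 stood 2.37-fold and 2.25-fold above Abcb1a, and 4.57-fold and 6.60-fold above Abcc1. By its coding transcripts alone, at 105 and 95.8 TPM, Abcc3 was still above Abcb1a in both libraries, by a much smaller margin. Of the 8 export pumps tested, 0 were called by the exact binomial test.

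Uptake carriers of the liver were nearly absent, while organic anion carriers of wider distribution were present. Of 11 uptake carriers besides Slc10a2, 4 reached 1 TPM in both libraries and 3 were listed at 0 in both. Those 4 were the prostaglandin carrier Slco2a1 with 53.9 and 39.9 TPM, Slco3a1 with 23.6 and 27.8, Slco2b1 with 19.9 and 17.1, and Slco4a1 with 12.3 and 11.1. Slc10a1, the sodium-dependent bile acid carrier of hepatocytes, was listed at 0 and 0.09 TPM and is named after its values were seen. Of the 5 uptake carriers tested, 0 were called.

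Of 10 other receptors of bile acids and partners of FXR, the 4 highest stood above Nr1h4 by TPM and the other 6 below it, in both libraries. Vdr, the vitamin D receptor that also binds the secondary bile acid lithocholic acid, had 127 and 126 TPM, which was 5.19 and 6.88 times the level of Nr1h4. The RXR partners Rxrb and Rxra had 75.0 and 69.2, and 74.0 and 62.3 TPM. Nr1i2, which encodes the xenobiotic receptor PXR, had 34.7 and 33.4 TPM. Of the 10 genes listed, 8 reached 1 TPM in both libraries, and 0 of the 9 tested were called.

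Of the 11 regulators, targets and receptors around FXR and FGF15, 8 reached 1 TPM in both libraries and 3 were called. Hnf4a had 595 and 530 TPM, Cdx2 268 and 242, Gata6 54.3 and 56.1, and Fgfr1 26.9 and 30.4, and none of these gut transcription factors and the receptor was called. Nr0b2, which encodes the repressor SHP and is a target of FXR in liver and ileum, had 4 counts in replicate 1 and 51 in replicate 2, or 0.12 and 1.52 TPM. Its log2 ratio was -3.55 (exact 95% interval -5.63 to -2.26), with an adjusted p of 8.36e-11 by the exact binomial test and 0.00268 by edgeR's exact test. Nr0b2 thus stood higher in the library in which Slc51a and Slc10a2 stood lower, which is also the library with 28500 TPM of the acinar markers. The sum of the 6 liver markers was 32.3 and 42.3 TPM, of which Ttr alone held 28.95 and 33.94. The median log2 ratio was -0.53 over the 5 liver markers tested. Of these Apoa2 (0.58 and 3.22 TPM) and Cyp2e1 (0.74 and 2.44) were called higher in replicate 2, and Alb had 1.39 and 1.82 TPM. The part of these markers in the value of Nr0b2 was not tested.

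Gata4, a factor of the upper small intestine, had 0.23 and 0.79 TPM and was called higher in replicate 2 by the exact binomial test, with a log2 ratio of -1.74. Malrd1, which in mice influences how much FGF15 is made, had 0.39 and 0.13 TPM and was called higher in replicate 1, with a log2 ratio of 1.52. Neither passed edgeR's exact test, with adjusted p of 0.372 for Gata4 and 0.623 for Malrd1. The remaining 8 of the 11 genes tested were not called.

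Of the bile acid synthesis genes, Cyp7a1, the committed step of the main pathway in liver, had 0 counts in both libraries and is named after its values were seen. Its TPM was listed at 0, and the authors' posterior mean of TPM, which is above 0 even without reads, at 1.46 and 0.96. The peroxisomal thioesterase Acot8 had 142 and 142 TPM, Hsd3b7, an enzyme of bile acid synthesis, 74.5 and 57.3, the sterol carrier Scp2 54.6 and 62.1, and Cyp27a1, which starts the alternative pathway, 16.3 and 19.2. Of 18 synthesis genes 9 reached 1 TPM in both libraries, and 0 of the 13 tested were called.

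Of the 7 conjugation and detoxification genes, 4 reached 1 TPM in both libraries and were tested. Sult2b1, a sterol sulfotransferase, had 32.9 and 35.5 TPM, the glucuronosyltransferase Ugt2b34 had 32.4 and 35.3, and Cyp3a13 had 6.43 and 5.15. Ugt1a1, the bilirubin glucuronosyltransferase, had 39.6 TPM in replicate 1 and 11.3 in replicate 2, with a log2 ratio of 1.78 and an adjusted p of 2.79e-258 by the exact binomial test. EdgeR's exact test gave Ugt1a1 an adjusted p of 0.126. Ugt1a1 shares exons with the other Ugt1a genes, so the division of its reads is uncertain.

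**Figure D4:**
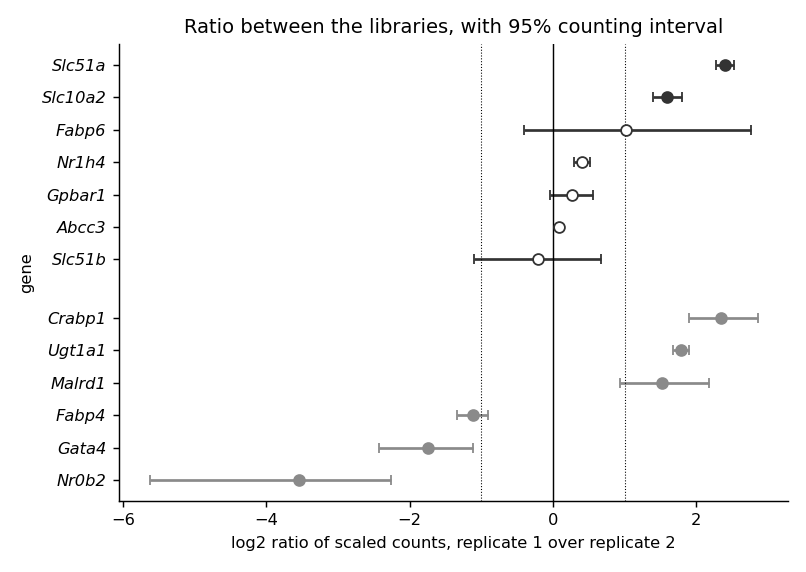
Log2 ratio of scaled counts, replicate 1 over replicate 2, of the 7 genes tested (black, above) and of the called genes of the wider pathway lists (grey, below), with exact 95% counting intervals, filled where called; dotted lines mark -1 and 1. Slc51a at 2.40 and Nr0b2 at -3.55 lie at the ends of their groups, and the interval of Slc51b spans 0.

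Across the 7 wider lists, 6 of 57 tested genes were called, or 10.5%, against 6.11% of all genes tested, with 3 higher in each library. By edgeR's exact test 2 of the 57, Nr0b2 and Crabp1, were called, against 1.35% of all genes tested. Of 76 listed genes 45 reached 1 TPM in both libraries. The lists were written with earlier results of these libraries known, so these shares describe the lists only.

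**Figure D5:**
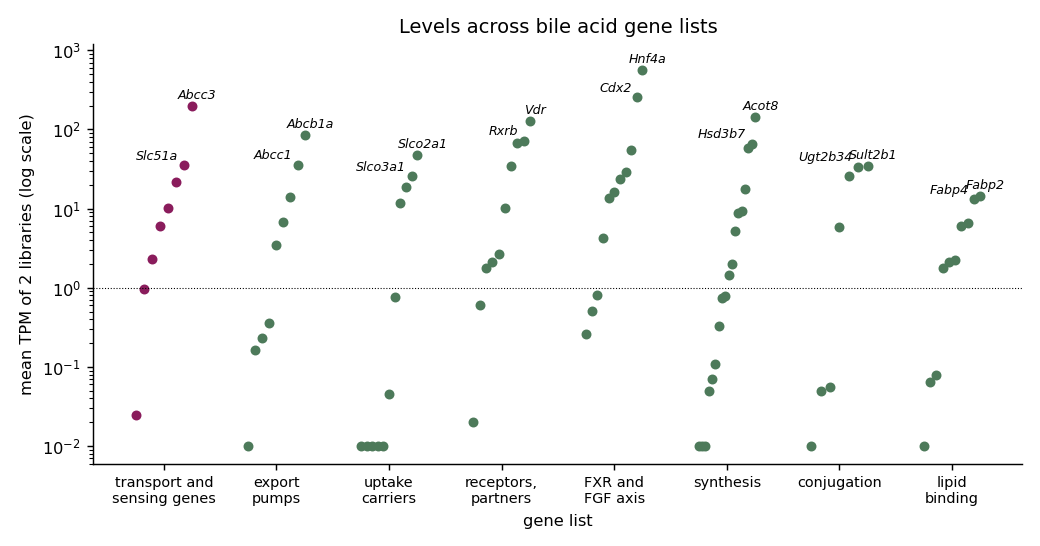
Mean TPM over both libraries, on a log scale, of the 8 genes (purple) and of the genes in 7 bile acid lists (green), each point a gene, with the highest in each list named; points at the foot of the axis are at or below 0.01 and the dotted line is 1 TPM. Abcc3 at 196 TPM lies above the export pumps, and Hnf4a at 563 leads the lists.

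The genes nearest to the 3 highest genes were found by distance in log2(TPM + 1) over the 2 libraries, a measure that rests on only 2 values per gene. Pnpla2 (distance 0.044), Lamtor2 and Fbln1 lay nearest to Abcc3, and Rhbdl1 (0.009), Ppp1r12b and Cox19 nearest to Nr1h4. Nearest to Slc51a were Ugt1a1 (0.58), the antimicrobial gene Ang4 (0.65), which had 40.5 and 8.44 TPM, and the peptidase gene Naaladl1 (0.67), which had 43.3 and 16.1. These distances were larger than those for Abcc3 and Nr1h4, so no protein-coding gene matched Slc51a closely in both libraries.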

How the data were processed

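Gene and transcript tables of 2 colon libraries were used as deposited. The deposited expected counts are the authors' estimates of the reads of each gene and are not normalized. TPM, a posterior mean of TPM, and FPKM were deposited by the authors beside them, as was the percent of a gene's TPM given to each transcript. Per the file headers and notes, these rest on mm10 with GENCODE M4. The strand setting, the aligner and the quantifier version were not given in the sources used here. The deposited splice junction and contig files, on mm9, were not used here.

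Features outside Ensembl genes, 0.895% and 1.017% of counts, were left out of library sizes. Symbols, biotypes and coordinates came from GENCODE vM21, which matched 42462 identifiers. M4 gene models are shorter than those of vM21 for Slc10a2 (1629 against 4152 bases), Slc51a (1600 against 2618) and Slc51b (488 against 709), and TPM rests on the M4 lengths. A two-sided exact binomial test of the rounded expected counts set replicate 1 against replicate 2, at TMM-scaled library sizes (edgeR 4.0.16, R 4.3.3; scipy 1.17.1). Benjamini-Hochberg adjustment covered the 17713 genes with 10 or more counts in both libraries together. A call needed an adjusted p no higher than 0.05 and a log2 ratio of 1 or more in size. For the ratio, 0.5 was added to each rounded count before scaling. This test compares 2 libraries, not conditions. EdgeR's exact test used the common dispersion of both libraries. Intervals and floors (3 counts) cover counting error only, since reads are not independent molecules. The steps were tested on simulated data. The simulated counts held counting error only, without further spread between libraries, so they do not show how the calls behave under that spread.

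The 8 genes, the lists and the tests were chosen with earlier results of these data known. The rule for named genes takes the 8 genes, the 4 highest and every called gene of each other list, and the 3 nearest genes to each of the 3 highest of the 8; genes outside it are marked, and marker lists are mostly given as sums, without all the genes that the rule allows. Promoters came from RefSeq for 6 of the 8 genes. Alternatives were DESeq2 1.42.0 size factors, plain totals, other count filters, a prior of 2, posterior means, FPKM and leaving out each library.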

Additional observations from a re-analysis of the deposited data

How the results depend on the processing

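With 1 group of 2 libraries, leaving out a library leaves 1 value of a level and no comparison. No paired analysis was possible because the series has 1 group, so no groups share replicate numbers. With each library left out in turn, levels ran from 11.1 to 59.6 TPM for Slc51a, 2.17 to 2.40 for Slc51b, 4.95 to 15.2 for Slc10a2, 18.3 to 24.4 for Nr1h4, 0.60 to 1.32 for Fabp6, 0 to 0.05 for Fgf15, 188 to 204 for Abcc3 and 5.36 to 6.55 for Gpbar1. The 1083 genes called came to 414 at a summed count of at least 100, where fewer genes were tested, and to 239 by edgeR's exact test, which adds the spread between libraries; all 414 and all 239 were among the 1083. Under that test 1 of the 8 genes was called in place of 2, and Slc10a2 kept its log2 ratio of 1.59 with an adjusted p of 0.302. With only its 2 protein-coding transcripts, an alternative chosen after seeing the data, Abcc3 had 100 TPM in place of 196. Under the other scalings, filters and prior count, 1051 to 1138 genes were called, 2 of the 8 genes were called each time, and the median log2 ratio of all genes stayed between -0.033 and 0.009. Of 108 values recomputed, 103 kept their direction and their side of the threshold, or moved by less than the spread between the libraries. With 2 libraries that spread is wide, so it is a weak criterion for levels. Leaving out 1 of 2 libraries always moves a mean by less than their SD. Those levels are among the 103 and could not have come out otherwise, and the orders by FPKM are no separate check either. Depth limits Slc51b, Fabp6 and Fgf15.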

Other observations

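Fatty acid and retinoid binding proteins, relatives of Fabp6, were low in the colon libraries. Of the 10 genes listed, 7 reached 1 TPM in both libraries, with a list total of 43.0 and 49.7 TPM. Fabp2 had 10.5 and 18.3 TPM, Fabp4, the fatty acid binding protein of adipocytes, 7.97 and 18.3, Crabp1, a retinoic acid binding protein, 10.95 and 2.07, and Rbp2, a retinol binding protein of the gut, 7.23 and 4.76. Crabp1 had 237 counts in replicate 1 and 45 in replicate 2, and its log2 ratio of 2.35 (exact 95% interval 1.90 to 2.86) passed both the exact binomial test (adjusted p = 1.72e-30) and edgeR's exact test (adjusted p = 0.0166). Fabp4 was called higher in replicate 2 by the exact binomial test alone, with a log2 ratio of -1.12. Fabp1, the liver form, had 1 count in each library and is named after its values were seen.

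Of the 13 small intestine markers, the sugar carrier Slc5a1 had the highest level with 52.2 and 45.5 TPM, and the peptide carrier Slc15a1 had 31.2 and 34.6. Sis had 53 and 17 counts and a log2 ratio of 1.58, while its TPM was 0.25 and 0.24, and Cubn, the receptor for vitamin B12 bound to intrinsic factor, had 182 and 58, with a log2 ratio of 1.61. The list as a whole had a median log2 ratio of -0.17, with 7 of 13 below 0. Sis and Cubn were called by the exact binomial test, and neither passed edgeR's exact test, with adjusted p of 0.759 for Sis and 0.381 for Cubn. Of the 7 enteroendocrine markers, whose median log2 ratio was 0.05, Pyy was highest with 2056 and 1860 TPM, ahead of Insl5 (96.9 and 131), Chga (113 and 76.6) and Gcg (34.7 and 37.6). The exact binomial test called 2 of the 7 higher in replicate 1, Chgb, a granin, with 35.0 and 16.8 TPM, and Nts, the neurotensin gene, with 1.98 and 0.94. Each had a log2 ratio of 1.04 and an adjusted p of 1.0 by edgeR's exact test.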
